A study of Mus musculus with 6 samples.

Results

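Pax8, Lhx1, Pax2, Pou3f3, Irx3 and Hnf4a are 6 transcription factors of the induced mesenchyme, the renal vesicle and the early tubule segments of the mouse kidney. They were taken as every probe set whose platform annotation gave 1 of these gene symbols after updating to current names, which found 1 probe set for each gene, 6 of the 12422 probe sets analysed. Whole embryonic kidneys (metanephros) were collected at E14.5, Theiler stage 22, and their RNA was hybridized to 6 Affymetrix arrays of the one-colour MG_U74Av2 design. The 4 wild-type arrays each held a pool of 2 kidneys of strain label CD-1. The 2 mutant arrays each held a pool of 8 to 10 kidneys from 4 to 5 embryos with the Wnt4tm1Amc allele and strain label 129, although the protocol shared by all samples speaks of CD-1 matings. The study used the comparison to find genes of the renal vesicle and the structures that form from it, which need the secreted signal Wnt4.

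Nephrons begin when the ureteric bud, the future collecting duct, induces the cap mesenchyme around its tips to form pretubular aggregates. Wnt4 made in these aggregates drives them to become an epithelial renal vesicle, which lengthens into an S-shaped body with proximal, intermediate and distal segments. Pax2 and Pax8 are related paired-box proteins that establish the nephric lineage, and Lhx1 is a LIM homeodomain protein needed for its early patterning. Pou3f3 (Brn1) is a POU-domain factor of the loop of Henle and distal tubule, Irx3 an Iroquois homeodomain factor of the intermediate segment, and Hnf4a a nuclear receptor of the proximal tubule. Pax2, Pax8 and Lhx1 are also made in the ureteric bud lineage.

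Strain label and pool size differed with genotype, so their parts in any difference cannot be told apart from that of Wnt4. Whole kidneys were measured, so fewer cells of a type and less RNA per cell cannot be told apart either. Arrays of the same group correlated at 0.939 to 0.969 across probe sets, and arrays of different groups at 0.918 to 0.934. The signal of Wnt4 was 829, 739, 946 and 699 on the wild-type arrays, in the order of replicates 1 to 4 as for all values given here, against 74.2 and 34.5 on the mutant arrays. The labels and Wnt4 thus match, although the sources used here do not say whether the probe set lies within the stretch that the allele changes. Markers of kidney tissue were present on all 6 arrays: Six2 of nephron progenitors read 2457 to 2925 and Krt8 of the ureteric bud 1576 to 2081. Of the 6082 genes tested, 6.35% were lower and 5.13% were higher in the mutant (limma, adjusted p under 0.05); of the probe sets, 4.65% were higher.

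Pax8, Lhx1 and Irx3 fell in the Wnt4 mutant, Pax8 most and Irx3 least of these on the log2 scale. Pax2, Pou3f3 and Hnf4a had lower means in the mutant but did not pass the test with all arrays. Thus 3 of 6 factors were called lower, against 6.11% of the 7981 probe sets tested. The 6 were chosen with earlier results of these data known, so this share is a description. For 4 of the 6, both mutant values were under the lowest wild-type value, against 18.8% of probe sets. For Pax2, 1 of the 4, the margin was slight: wild-type replicate 2 and mutant replicate 1 both read about 115. The 3 that did not pass shared a feature among the controls: wild-type replicate 2 stood well below the other wild-type arrays. Without that array all 6 were called lower, in a fit that called 5.29% of 7844 probe sets lower. The array was singled out because it was low for these 3 genes, and 2 of them entered the test through wild-type arrays only, so this count is a description and no support for a fall of the 6.

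**Figure D1:**
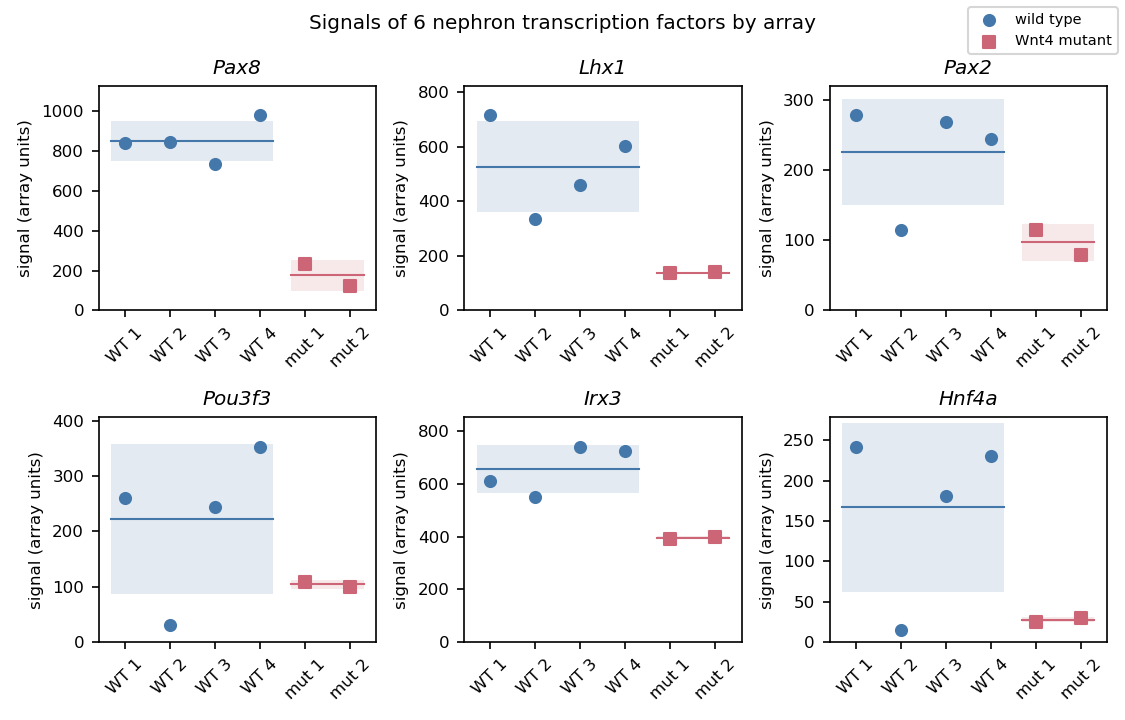
Signals (array units, each vertical axis from 0) of the 6 factors on every array; circles are wild type, squares mutant, lines the group means and shaded bands ±1 SD (n = 4 and n = 2). Both mutant arrays sit below every wild-type array for Pax8, Lhx1, Irx3 and, by a slight margin, Pax2. Wild-type replicate 2 is below both mutant arrays for Pou3f3 (30.1) and Hnf4a (14.9).

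The promoters of the 3 factors that were called lower are shown so that their sequences can be read side by side. Each is the 250 bases before the annotated start, from RefSeq (build GRCm38.p6), read 5′ to 3′ on the gene's strand, and capitals mark a CCAAT box (CCAAT on either strand) or a TCF/LEF core (CTTTGA or CTTTGT on either strand), the kind of site bound by the partners of beta-catenin. The windows are chr2:24475600-24475849 for Pax8, chr11:84525535-84525784 for Lhx1 and chr8:91801655-91801904 for Irx3, all on the minus strand.
Pax8: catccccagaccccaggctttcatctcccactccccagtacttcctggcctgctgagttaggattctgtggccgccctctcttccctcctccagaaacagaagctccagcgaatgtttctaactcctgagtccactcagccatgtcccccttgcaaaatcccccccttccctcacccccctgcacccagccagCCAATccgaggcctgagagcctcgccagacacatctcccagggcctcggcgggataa
Lhx1: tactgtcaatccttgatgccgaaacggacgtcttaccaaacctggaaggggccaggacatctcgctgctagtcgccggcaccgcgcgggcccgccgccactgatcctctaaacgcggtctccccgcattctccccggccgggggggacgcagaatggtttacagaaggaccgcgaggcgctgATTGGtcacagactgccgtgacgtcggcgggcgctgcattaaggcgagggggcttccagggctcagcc
Irx3: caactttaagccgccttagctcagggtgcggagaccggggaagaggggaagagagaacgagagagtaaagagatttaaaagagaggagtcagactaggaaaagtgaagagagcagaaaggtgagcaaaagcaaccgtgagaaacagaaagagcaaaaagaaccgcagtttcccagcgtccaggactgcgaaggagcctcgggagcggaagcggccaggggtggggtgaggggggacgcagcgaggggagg
Pax8 and Lhx1 each held 1 CCAAT box, 57 to 53 and 68 to 64 bases before the start, and Irx3 held none. None of these 3 windows held a TCF/LEF core. Of 32851 such windows over all genes, 33.8% held a CCAAT box and 27.6% a TCF/LEF core. All 6 factors had a window in RefSeq, 9 windows in all because Pax2 has 3 annotated starts and Hnf4a 2. Pou3f3 held 3 CCAAT boxes, at 160 to 156, 103 to 99 and 84 to 80 bases before its start, and 2 of the 3 Pax2 windows held 1 TCF/LEF core each. The first and second Hnf4a windows each held 1 CCAAT box, at 192 to 188 and 216 to 212 bases. The second Hnf4a window also held 2 HNF1 half-sites (GTTAAT on either strand), at 81 to 76 and 74 to 69 bases, a motif present in 6.43% of windows. It held 1 homeodomain core (TAATTA) at 165 to 160 bases, a motif present in 4.84%. No window of the 6 factors held a TATA box (TATAAA) or an octamer (ATGCAAAT), present in 12.4% and 1.6% of windows. A match here is a run of letters and not a measured site.

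Pax8 showed the largest fall on the log2 scale among the 3 factors that passed the test. Its signals were 839, 845, 733 and 980 in wild-type kidneys against 231 and 121 in mutant kidneys. The wild-type arrays lay close together, within a factor of 1.34, and both mutant arrays were far below the lowest of them. The means were 849 ± 101 (SD, n = 4) and 176 ± 77.7 (SD, n = 2), so the mutant mean was 20.7% of the wild-type mean. The log2 difference was -2.23 ± 0.22 (SE; 95% interval -2.73 to -1.72; limma, adjusted p = 4.96e-04). Mutant replicate 2, at 14.3% of the wild-type mean, was lower than mutant replicate 1, at 27.2%. Pax8 still exceeded the 40th percentile of its array on both mutant arrays.

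Lhx1 fell too, and its mutant arrays were nearly equal. Its signals were 716, 336, 460 and 602 in wild-type kidneys against 138 and 141 in mutant kidneys. The wild type spread over a factor of 2.13, with replicate 2 lowest, and the groups did not overlap. The means were 528 ± 166 (SD, n = 4) and 139 ± 2.28 (SD, n = 2), and the log2 difference was -1.76 ± 0.27 (SE; 95% interval -2.36 to -1.15; limma, adjusted p = 0.00377). The mutant mean was 26.4% of the wild-type mean. The Lhx1 call held in every fit that left out 1 array, with adjusted p from 0.00103 to 0.0387, as did the Pax8 call, from 4.22e-04 to 0.00310.

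Pax2, the paired-box relative of Pax8 that is also made in the cap mesenchyme and the ureteric bud, did not pass. Its signals were 278, 115, 268 and 244 in wild-type kidneys (mean 226 ± 75.3, SD, n = 4) against 115 and 78.7 in mutant kidneys (97.0 ± 25.9, SD, n = 2). Wild-type replicates 1, 3 and 4 were close to each other, whereas replicate 2 lay just above mutant replicate 1. The log2 difference was -1.05 ± 0.36 (SE; 95% interval -1.86 to -0.25; limma, adjusted p = 0.0961). Without wild-type replicate 2 it was -1.32 (adjusted p = 0.0114), and over the fits that left out another array the adjusted p ran from 0.144 to 0.425.

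Irx3 fell by the smallest amount of those called. Its signals were 610, 552, 741 and 724 in wild-type kidneys against 391 and 400 in mutant kidneys, without overlap. The means were 657 ± 91.2 (SD, n = 4) and 396 ± 6.15 (SD, n = 2), the mutant at 60.3% of the wild type. The log2 difference was -0.70 ± 0.15 (SE; 95% interval -1.03 to -0.36; limma, adjusted p = 0.0186). Its size changed little when an array was left out (-0.78 to -0.64), but the call was lost without mutant replicate 1 (adjusted p = 0.131) or 2 (adjusted p = 0.122). By linear means Irx3 kept a larger share of its wild-type signal than Pou3f3 did (46.8%), but on the log2 scale the Pou3f3 difference was the smaller (-0.64).

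Pou3f3 and Hnf4a, the factors of the loop and distal tubule and of the proximal tubule, had the widest spread among wild-type kidneys. Pou3f3 signals were 260, 30.1, 244 and 353 in wild-type kidneys (mean 222 ± 136, SD, n = 4) against 109 and 98.6 in mutant kidneys (104 ± 7.36, SD, n = 2). Its lowest value of all 6 arrays was thus a wild-type one, and the groups overlapped. The log2 difference was -0.64 ± 0.72 (SE; 95% interval -2.28 to 1.00; limma, adjusted p = 0.633). Without wild-type replicate 2 it was -1.32 (95% interval -1.85 to -0.78; adjusted p = 0.0113).

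Hnf4a signals were 242, 14.9, 181 and 230 in wild-type kidneys (mean 167 ± 105, SD, n = 4) against 25.3 and 30.1 in mutant kidneys (27.7 ± 3.33, SD, n = 2). Wild-type replicate 2 was again below both mutant arrays, while the other 3 wild-type arrays were far above them. The log2 difference was -1.68 ± 0.82 (SE; 95% interval -3.54 to 0.17; limma, adjusted p = 0.230). Without wild-type replicate 2 it was -2.41 (95% interval -3.15 to -1.67; adjusted p = 0.00310). Pou3f3 and Hnf4a exceeded the 40th percentile of signals only on wild-type replicates 1, 3 and 4, so they entered the test through the group in which they were high. Low Hnf4a signals also make its size depend on the offset of 16 that was added before taking logs: it was -1.98 with an offset of 1 and -1.15 with 64.

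**Figure D2:**
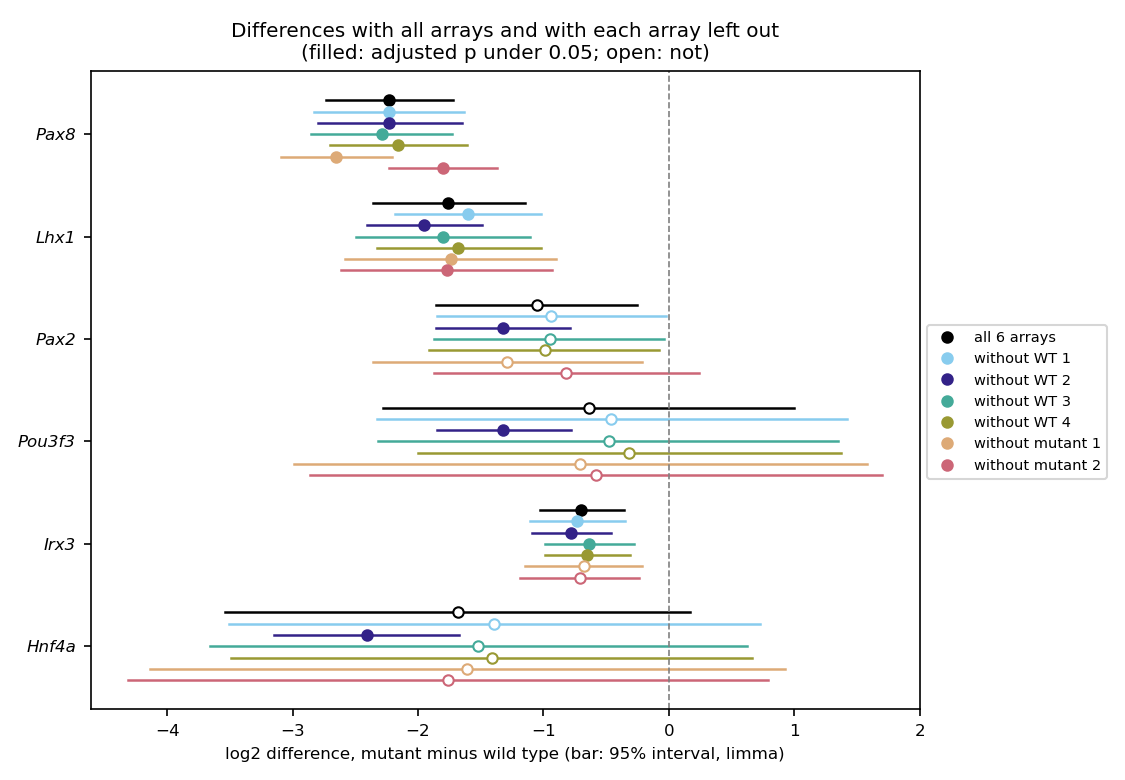
Log2 differences (mutant minus wild type, horizontal axis) of the 6 factors with all 6 arrays and with each array left out; bars are 95% intervals from limma and filled points have adjusted p under 0.05. Pax8 and Lhx1 are filled throughout, Pax2, Pou3f3 and Hnf4a are filled only without wild-type replicate 2, and Irx3 is open when a mutant array is left out.

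Wild-type replicate 2 was the lowest wild-type array for 5 of the 6 factors, all but Pax8. Over the 7981 probe sets kept it was lowest for 24.7%, against 32.8% for wild-type replicate 4. Replicate 2 was also the lowest wild-type array in the summed signal of both tubule lists, though not by as much as for Pou3f3 and Hnf4a. This was not particular to tubule genes. The array was lowest too in the sums of the stroma (39897 against 44580 to 49940), podocyte (9769 against 10093 to 11258) and endothelium lists (8642 against 9009 to 9184). In the ureteric bud and nephron progenitor sums it was not the lowest. The phosphate carrier Slc34a1 of the proximal tubule read 520 there, 528 to 606 on the other wild-type arrays, and 53.6 and 36.4 in the mutant. Slc12a1, the cotransporter of the loop of Henle, read 537 there against 514 to 849 on the others, with 52.2 and 5.88 in the mutant. The proximal tubule genes summed to 6480 on this array, 7392 to 7730 on the other wild-type arrays, and 3368 and 2851 in the mutant. The loop and distal tubule genes summed to 4402 on it, 4873 to 5349 on the others, and 2712 and 2438 in the mutant. It was the lowest wild-type array for 12 of the 25 proximal tubule genes tested, among them the water channel Aqp1 (26.3 there, 129 to 170 on the other wild-type arrays, 78.9 and 125 in the mutant). The array was lowest for 2 of 7 loop and distal tubule genes and for 9 of 15 stromal genes tested. The part of this array's RNA or hybridization in the low Pou3f3 and Hnf4a signals was not tested.

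Within-array log2 ratios show whether the factors changed by unequal amounts, and 15 pairs were compared. With 4 arrays against 2, the smallest two-sided p of an exact permutation test is 0.133, so no pair could pass, and the smallest value adjusted over the 15 pairs was 0.286. Pax8 over Pax2 was 1.54, 2.71, 1.40 and 1.94 on wild-type arrays and 0.91 and 0.53 on mutant arrays, a change of -1.17 (exact p = 0.133, adjusted 0.286). The ratio was lower on both mutant arrays than on any wild-type array, and it changed by -0.90 without wild-type replicate 2. Lhx1 over Irx3 changed by -1.06 (exact p = 0.133, adjusted 0.286), from between -0.69 and 0.23 to -1.41 on both mutant arrays. These shifts mostly restate how far Pax8 and Lhx1 fell: the Pax8 ratio lay lower in both mutant arrays for 98.2% of all other genes, and the Lhx1 ratio for 95.4%. Pax8 over Lhx1 changed by -0.47 with overlapping groups (exact p = 0.400, adjusted 0.545).

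Pou3f3 over Hnf4a was the pair whose ratio varied least in the wild type. On wild-type arrays it was 0.10, 0.58, 0.40 and 0.58, although both signals were low on replicate 2, and on mutant arrays 1.60 and 1.31. These values are a description only. Hnf4a was below the 40th percentile on both mutant arrays, as was Pou3f3, and the change of 1.04 was 1.34 with an offset of 1 and 0.58 with 64.

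Among inductive signals, the ligands Wnt4, Dll1 and Fgf8 fell, while most receptors and Wnt effectors did not pass. In a list of 27 inductive signals and receptors, 21 were tested, 5 were lower, 1 was higher and 15 did not pass, with a median log2 difference of -0.02 against 0.01 over all genes tested. The lower genes were Wnt4, the Notch ligand Dll1 (-3.42, adjusted p = 1.10e-04), the growth factor Fgf8 (-2.39, adjusted p = 0.0194), the Wnt inhibitor Dkk1 (-1.92, adjusted p = 4.86e-04) and the receptor Notch1, all by limma. Of the 21, 4 exceeded the filter level on wild-type arrays only: Wnt4, Dll1, Fgf8 and Dkk1. They thus entered the test through the group in which they were high. Fgf8 had low signals, 72.0 to 137 on wild-type arrays and 9.07 and 4.21 on mutant arrays. Its difference was -3.82 with an offset of 1 and -1.24 with 64. The count of lower genes was 3 without wild-type replicate 3, mutant replicate 1 or mutant replicate 2. Beta-catenin, Ctnnb1, had 0.20 (adjusted p = 0.149), and Sfrp2, a secreted Wnt antagonist, read 2793 to 3342 on wild-type arrays and 3274 and 3063 on mutant arrays. The 1 higher gene was its relative Sfrp1, with 0.80 (limma, adjusted p = 0.0189). Sfrp1 read 571 to 840 on wild-type arrays and 1126 and 1452 on mutant arrays.

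Genes for proteins that work with Pax and LIM factors went the other way where they passed. Of 23 tested, 0 were lower, 5 were higher and 18 did not pass; the median was 0.22, and 0.07 over all 25 on the array without a filter. At an unadjusted p under 0.05, 3 of the 23 were lower. Ssbp2, which binds the LIM cofactor Ldb1, read 875 to 1341 on wild-type arrays and 2267 and 2406 on mutant arrays (log2 difference 1.10; limma, adjusted p = 0.00210). Eya2, of the Eya coactivators, rose by 1.05, Six5 by 0.92, Lmo4, a LIM-only protein, by 0.77 and Ldb2 by 0.59. Ldb1 itself had -0.04 (adjusted p = 0.920). Six2, the progenitor factor, had -0.11 (adjusted p = 0.479) and Tle5, of the Groucho corepressor family, -0.54 (adjusted p = 0.0689). Without mutant replicate 1, mutant replicate 2 or wild-type replicate 1, the count of higher genes was 1, 2 and 3, and 3 genes were lower without wild-type replicate 4 and 1 without mutant replicate 1. Of 15 stromal markers tested on the same arrays, 9 rose, among them Foxd1 and Ntn1 by 1.75 each, and 0 fell (1 at an unadjusted p under 0.05). All 15 on the array summed to 39897 to 49940 in wild-type and to 69228 and 66471 in mutant kidneys, and their part in these rises was not tested.

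The relatives of the 6 factors were mostly dim. Of 48 paralogues, 29 were on the array and 11 passed the filter; among those left out were Pax1, Pax3, Pax6, Pax9, Lhx3, Lhx5, Pou3f1, Pou3f2 and Hnf4g. In the 11 tested, 1 was lower and 1 was higher, with a median of 0.29; none was lower when wild-type replicate 1 or 3 or a mutant array was left out (1 at an unadjusted p under 0.05 with all arrays). Nr2f1 (COUP-TFI), an orphan nuclear receptor, rose by 1.25, from 782 to 1040 in the wild type to 1921 and 2511 (limma, adjusted p = 8.70e-04), and its relative Nr2f6 fell by 0.37 (adjusted p = 0.0239). Nr2f2 had 0.21 (adjusted p = 0.561) and Rxrb, a retinoid X receptor, 0.27 (adjusted p = 0.306).

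Other transcription factors of the developing nephron split in direction. Of 19 tested, 4 were lower, 3 were higher and 12 did not pass; the median was -0.12 and turned to 0.13 over all 25 on the array without a filter. Sim2 fell by 2.09 (102 to 157 on wild-type arrays, 30.8 and 8.57 on mutant arrays; limma, adjusted p = 0.0178), Sim1 by 1.19 and the Notch target Hey1 by 1.16. Sim1 and Sim2 are bHLH-PAS factors. Of the 19, 4 exceeded the filter level on wild-type arrays only, among them Sim1 and Sim2. The size of the Sim2 difference depended on the offset. It was -2.89 with an offset of 1 and -1.22 with 64. Leaving out wild-type replicate 3 left 2 lower genes, leaving out mutant replicate 1 left 1, and leaving out mutant replicate 2 left 0 (7 of the 19 had an unadjusted p under 0.05 and were lower with all arrays). Meis1, a homeodomain factor that is also a stromal marker, rose by 1.33 (adjusted p = 0.00159). Foxc2 and Tcf21 had 0.22 and 0.13 (adjusted p = 0.226 and 0.368).

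Genes of the epithelia in which these factors act were more often lower than higher. In the list for the renal vesicle and S-shaped body, 7 of 20 tested were lower, 1 was higher and 12 did not pass; the median was -0.47, and 4 were lower when mutant replicate 1 or mutant replicate 2 was left out. Lama1, a laminin chain of early basement membrane, fell by 1.65 (799 to 1166 on wild-type arrays, 295 and 289 on mutant arrays; limma, adjusted p = 4.18e-04). The cadherin Cdh6 of the early proximal nephron fell by 1.39, the secreted chaperone Clu by 1.26 and the laminin receptor Itga6 by 0.91. Cdh16 and Cldn7 had -0.23 and -0.26 (adjusted p = 0.143 and 0.194).

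In the proximal tubule list, which holds genes of the segment that needs Hnf4a, 13 of 25 tested were lower, 0 were higher and 12 did not pass. At an unadjusted p under 0.05, 0 of the 25 were higher. The median was -1.24, or -1.03 over all 29 on the array without a filter, against 0.022 for all genes without a filter. Of the 25, 13 exceeded the filter level on wild-type arrays only. Pdzk1, a scaffold of the brush border, had -4.70, Keg1 -3.78, the protease Napsa -3.63 and Slc34a1 -3.26 (limma, adjusted p = 1.06e-05, 1.29e-04, 4.07e-04 and 2.79e-05). Their mutant signals were 10.1 and 11 for Pdzk1, 3.35 and 13.3 for Keg1, 9.68 and 14.2 for Napsa and 53.6 and 36.4 for Slc34a1, all below the 40th percentile and, except for Slc34a1, below the offset of 16. The sizes of these falls are thus set in part by the offset: they were -5.87, -5.31, -4.69 and -3.64 with an offset of 1 and -3.31, -2.38, -2.38 and -2.53 with 64. Dab2 and Gatm had -0.21 and -0.10 (adjusted p = 0.509 and 0.789). Of 7 genes tested for the loop and the distal tubule, 4 were lower (2 without mutant replicate 2), 0 were higher and 3 did not pass (at an unadjusted p under 0.05, 1 were higher). Slc12a1 had -4.06 (-5.04 with an offset of 1 and -2.95 with 64), the sodium pump subunit Fxyd2 -2.50, Sim2, held by both lists, -2.09 and the calcium-binding protein Calb1 -0.61. Pvalb and Atp1b1 had 0.49 and -0.56 (adjusted p = 0.0598 and 0.105).

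**Figure D3:**
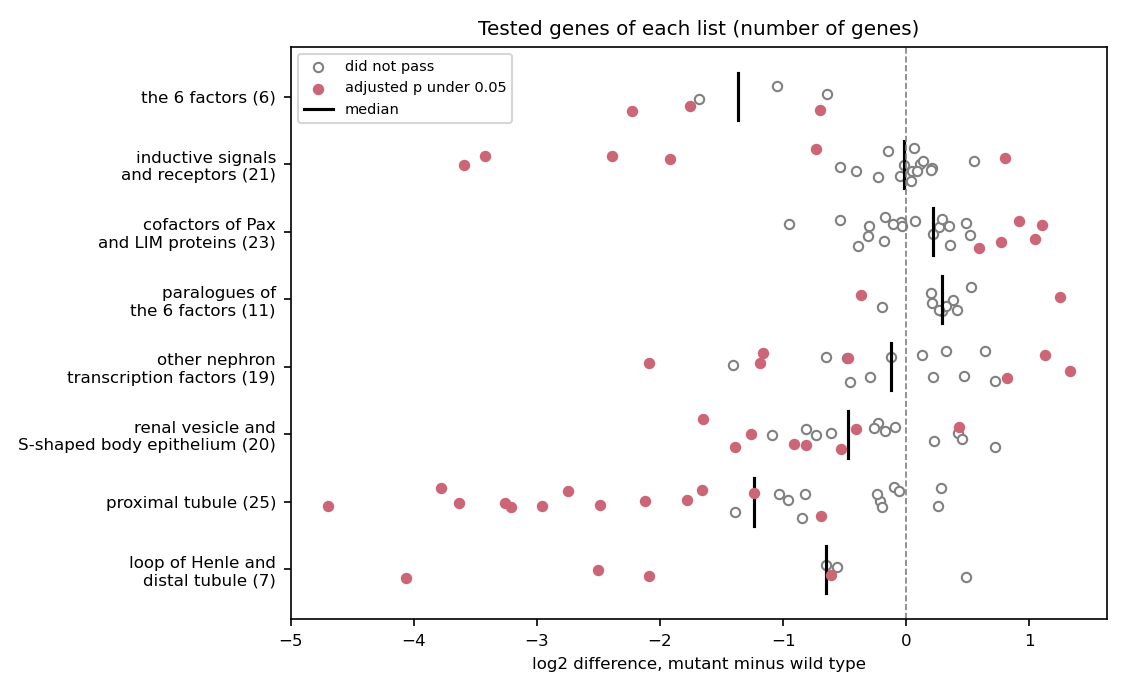
Log2 differences (mutant minus wild type, horizontal axis) of the tested genes in each list, with the number of genes in parentheses; filled points passed the test (adjusted p under 0.05), open points did not, and vertical bars are medians. The 3 filled factors lie at -2.23, -1.76 and -0.70, and the proximal tubule list reaches -4.70, a size that depends on the offset.

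Markers of the ureteric bud, of nephron progenitors and of podocytes moved in both directions. Of 14 ureteric bud and collecting duct genes tested, 4 were higher (Gata2 by 0.94, Krt7 by 0.69, Krt18 by 0.40, Krt8 by 0.36), 2 were lower (Calb1 by 0.61, Wfdc2 by 0.41) and 8 did not pass. The summed signal of the 16 on the array was 10662 to 11521 in wild-type kidneys and 12926 and 12500 in mutant kidneys; Ret and Aqp2 were below the filter. Of 17 nephron progenitor genes tested, 3 were lower (Uncx by 1.33, Meox2 by 0.94, Cited1 by 0.76), 3 were higher (Gpc3 by 1.56, Cdh11 by 0.69, Capn6 by 0.45) and 11 did not pass. Their summed signal was 21734 to 23783 in wild-type kidneys and 27352 and 28385 in mutant kidneys, but without Gpc3 it was 18483 to 21142 and 18543 and 18715, so the higher sum came from that gene. Of 9 podocyte genes tested, 3 were lower (Ptpro by 2.76, Npnt by 1.38, Vegfa by 0.87), 1 was higher (Actn4 by 0.52) and 5 did not pass; the median was -0.48. In 5 of the 9 both mutant arrays lay under every wild-type array, against 18.8% of probe sets, and in 2 they lay above every one. Ptpro exceeded the filter level on wild-type arrays only, and its difference was -3.36 with an offset of 1 and -1.93 with 64. The summed signal of the podocyte list, to which the bright genes Tcf21 (also in the stroma list), Foxc2 and Actn4 contribute most, was 9769 to 11258 in wild-type kidneys and 10087 and 10115 in mutant kidneys. How much of the remaining Pax8, Lhx1 and Pax2 signal came from any of these cells was not tested.

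Markers of tissues outside the kidney, among them some that make Pou3f3, Irx3 or Hnf4a, gave few calls, and endothelial markers gave more. Of 7 neural and glial genes tested, none passed by limma (3 had an unadjusted p under 0.05), and the 14 on the array summed to 3272 to 3815 in wild-type kidneys and 4542 and 4025 in mutant kidneys. Of 13 liver and gut genes on the array, 2 passed the filter, of which Afp was lower (-1.17, adjusted p = 0.0258) and Shh had 0.23 (adjusted p = 0.774). Afp exceeded the filter level on wild-type arrays only. The 13 on the array summed to 570 to 702 and to 713 and 612. Of 4 adrenal and gonadal genes tested, none passed by limma (2 had an unadjusted p under 0.05); Nr5a1 had 0.31 (adjusted p = 0.128) and Cyp21a1 0.05 (adjusted p = 0.835). The 10 on the array summed to 2033 to 2292 and to 2681 and 2424. Endothelium is a cell type within the kidney. In its list, 5 of 12 tested were lower, against 6.35% of all genes tested. In that list 0 were higher (0 at an unadjusted p under 0.05) and 7 did not pass. Of the 12, 2 exceeded the filter level on wild-type arrays only, Nos3 among them. Nos3 had -1.76, Cldn5 -0.93, Emcn -0.63 and Eng -0.58, and the list summed to 8642 to 9184 and to 6274 and 6433.

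The genes whose profile over the 6 arrays was most like that of Pax8 or Lhx1 were ranked by the root mean square difference of log2 values, each gene centred on its own mean, among 6081 other genes. Nearest to Pax8 were Slc22a6, the organic anion transporter of the proximal tubule (0.154), Amacr, a racemase of branched fatty acid breakdown (0.184), Dkk1 (0.229), Myo5b, a vesicle transport myosin (0.236), and the mitochondrial protein gene Chchd10 (0.240). Slc22a6 read 138 to 183 on wild-type arrays and 33.4 and 17.5 on mutant arrays, the second mutant array lower as for Pax8. Its difference moved more with the offset than that of Pax8. It was -2.68 with an offset of 1 and -1.34 with 64, against -2.33 and -1.96 for Pax8. Nearest to Lhx1 were Fgfr4, a fibroblast growth factor receptor (0.166), Dmtn, an actin-bundling protein (0.184), Lama1 (0.205), Acadm, a fatty acid dehydrogenase (0.259), and Dao, D-amino acid oxidase (0.270). Fgfr4 signals were 238, 69.7, 119 and 189 in wild-type kidneys against 30.0 and 31.6 in mutant kidneys. Of the genes named here, Slc22a6, Amacr, Dkk1, Fgfr4 and Dmtn exceeded the filter level on wild-type arrays only. Lhx1 ranked 41 for Pax8, and Pax8 ranked 67 for Lhx1, both at a difference of 0.458. Likeness was measured over only 6 arrays in 2 groups, so it is dominated by how far each gene differed between them.

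**Figure D4:**
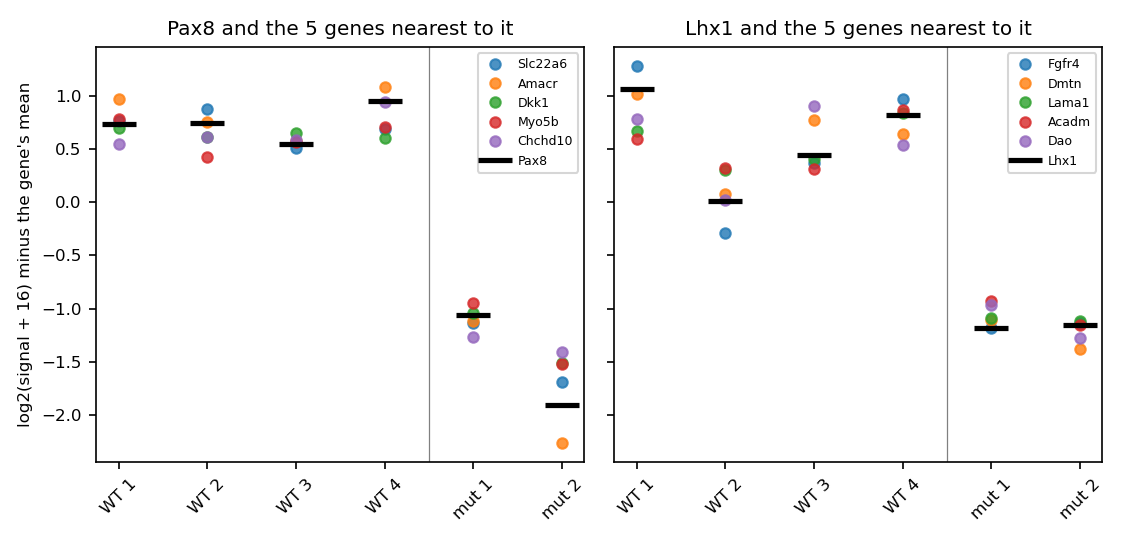
Log2(signal + 16) minus each gene's own mean over the 6 arrays (vertical axis) for Pax8 (left) and Lhx1 (right), black bars, with the 5 genes nearest to each, coloured points; the line divides wild type from mutant. Like Lhx1 (336 there), Fgfr4, Dmtn, Lama1 and Dao have their lowest wild-type value on replicate 2; of the genes near Pax8, Myo5b does.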

How the data were processed

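The authors deposited linear probe set intensities (signals), which the submitters' processing notes credit to the Affymetrix program GCOS; for its version and settings, the sources used here name none. The trimmed mean of each deposited column, leaving out 2% at each end, lay between 500.27 and 500.29, so arrays had been scaled to about 500. The number of arrays limits the precision, and p-values measure the spread between these pools. Signals were offset by 16 and log2 transformed, and kept at the deposited scale. The within-array ratios and the list sums combined signals of different probe sets, so their levels also depend on the probe sets. Probe sets above the 40th percentile of their array on at least 2 arrays (7981 of 12422, without 66 controls) were tested with limma 3.58.1 in R 4.3.3 (lmFit, eBayes with a variance trend, Benjamini-Hochberg over all tested, threshold 0.05); the procedure was tested on simulated data. All 6 factors passed this filter. A gene was represented by its brightest probe set. Of the 12422, 10833 had 1 symbol, 396 several and 1193 none; 10817 symbols were matched to RefSeq.

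Named were the 6 factors, Wnt4 and the 5 nearest profiles. Per list, up to 4 genes past the threshold and the 2 brightest that did not pass were named. Per marker list, these were up to 2 past it and the 2 brightest. Notch1, Sfrp1, Ldb1, Ldb2, Aqp1, Flt1, Wfdc2, Meox2, Cited1, Cdh11, Vegfa and Actn4 were added after their values were seen. So were the paralogues left out, Ret and Aqp2. Members and lists were chosen with earlier results of these data known. The alternatives were offsets, filters, scaling, array weights, the variance trend, a replicate block and leaving out each array.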

Additional observations from a re-analysis of the deposited data

Results flagged for a closer look

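Within the 4 wild-type arrays, a value was singled out when its gap to the nearest other value exceeded Dixon's 95% critical share of the group's range on the log2(signal + 16) scale, a limit that chance passes in about 1 of 20 groups. This happened for 6.63% of the 7981 probe sets kept and for 3 of the 6 factors. Wild-type replicate 2 was the low array for Pax2 (gap of 0.851 of the range), Pou3f3 (0.831) and Hnf4a (0.872), each time with the other 3 wild-type arrays close together. The same array was the low one for the water channel Aqp1 (0.833) and for the endothelial receptor Flt1 (0.946). Over all probe sets kept it was the low one for 1.78%, and wild-type replicate 4 for 1.97%. Clu was high on wild-type replicate 4 (0.932), and Ptpro was high on wild-type replicate 1 (0.873).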

How the results depend on the processing

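The Pax8 and Lhx1 falls passed under every alternative run: offsets of 1 and 64, no filter, a filter at the 60th percentile, quantile normalization, median centring, array weights, no variance trend, a replicate block, each array left out, and wild-type replicates 2 and 4 left out together, which was chosen after the data were seen. Leaving out 1 array gave -2.65 to -1.80 for Pax8, -1.95 to -1.60 for Lhx1, -1.32 to -0.82 for Pax2, -1.32 to -0.32 for Pou3f3, -0.78 to -0.64 for Irx3 and -2.41 to -1.39 for Hnf4a. Pax2 (-1.37), Pou3f3 (-1.16) and Hnf4a (-2.37) passed without wild-type replicates 2 and 4, and Pax2 also with array weights (-1.12). The filter at the 60th percentile dropped Pax2, Pou3f3 and Hnf4a. Replicate numbers 1 and 2 occur in both groups. Over all probe sets kept, deviations of same-numbered arrays from their group means correlated at 0.00305 and -0.0153. With 2 mutant arrays, the deviations of 1 mirror those of the other. These values therefore cannot tell whether same-numbered arrays were handled together, which was not tested. With a replicate block the Irx3 difference was -0.53 (adjusted p = 0.0790) and that of Pou3f3 turned to 0.09 (adjusted p = 0.949); the block compares the mutant arrays with wild-type replicates 1 and 2 only. It left 362 probe sets lower and 341 higher, and changed no call of the other factors. Counts of called probe sets, 488 lower and 371 higher, ran from 188 to 553 and from 114 to 448 over the fits without 1 array, lowest without mutant replicate 2 (without mutant replicate 1 they were 198 and 133, and 320 were lower without wild-type replicate 1), and were 738 and 613 with array weights. Over the lists, 33 genes were lower and 11 higher, with 19 to 35 and 4 to 15 without 1 array and 6 higher without a variance trend. The Lhx1 over Hnf4a ratio changed by 0.12 with an offset of 1 against -0.07, and without 1 array by -0.28 to 0.46; Pax8 over Hnf4a ran from -1.05 to 0.18 and Pou3f3 over Irx3 from -0.54 to 0.33. The cause was not tested. As each factor has 1 probe set, averaging probe sets changed no ratio. Signals near the offset limit how well the sizes for Hnf4a, Fgf8, Sim2, Ptpro and the most reduced tubule genes are known.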
